A study of Saccharomyces cerevisiae with 159 samples.

Results

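The mRNA levels of 10 genes of purine nucleotide synthesis were followed in the budding yeast Saccharomyces cerevisiae: IMD2 (YHR216W), IMD3 (YLR432W), IMD4 (YML056C), GUA1 (YMR217W), ADE1 (YAR015W), ADE4 (YMR300C), ADE5,7 (YGL234W), ADE12 (YNL220W), ADE13 (YLR359W) and ADE17 (YMR120C). The genes were chosen by identity, not by a threshold on the values, and are 10 of the 7130 rows measured, of which 6685 are nuclear open reading frames (ORFs). The series asked how cells that stop dividing or growing adjust their transcripts, in RNA-seq libraries from 8 experiments. All strains were grown in YEPD, a rich medium, and each genotype was 1 strain. The study's methods add glacial acetic acid to the YEPD of the Bcy1 experiment, described below.

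In the cdc28-13 experiment, cdc28-13 cells, in which a temperature-sensitive cyclin-dependent kinase stops the cycle in G1, were set against cycling WT cells over 9 h at 37 °C (2, 4, 6, 8 and 9 h). Each group had 3 libraries per time, except that cdc28-13 had 1 at 4 h and 1 at 6 h. WT cells carried ade2-1 with can1-100, GAL, psi+ and the marker alleles his3-11,15, trp1-1, ura3 and leu2-3 in a MATa strain, and cdc28-13 cells carried the same alleles with cdc28-13::URA3. The same WT strain served 2 further 37 °C experiments with 1 library per group and time. One used cdc20-1 cells, which stop in metaphase (MATalpha, with can1, ade2, his3, leu2, trp1 and ura3), and the other cdc15-2 cells, which stop in late anaphase (MATa, with ade1, omns, trp1-1, ura3 and leu2-3). The ADE1 reads of the cdc15-2 strain therefore came from an ade1 allele as labelled. WT cultures were kept at low density by dilution, which the labels do not state for the arrested cultures.

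In the alpha factor experiment, bar1::HisG cells (MATa, with ade2, his3, trp1-1, ura3, leu2-3 and can1-100) received the mating pheromone alpha factor, which stops the cycle in G1, or DMSO at 30 °C, with 1 library per group at 0, 2, 4, 6, 8 and 9 h. WT haploid cells and cells labelled diploid (MATa/alpha, otherwise with the alleles of WT) were grown at 30 °C for 2 to 24 h until nutrients ran out, or were treated with 5 nM rapamycin, an inhibitor of the TORC1 kinase, for 0 to 5 h. That dose is the label's for both, while the study's methods give the diploid cultures a lower dose. These groups had 2 libraries per time, except 1 for haploid cells at 4 h of growth. In the Bcy1 experiment at 37 °C, WT, cdc28-13, cdc20-1 and cdc15-2 cells were each set against an AID-BCY1 strain. There Bcy1, the inhibitory subunit of protein kinase A (PKA), carried an auxin-inducible degron under the RFA1 promoter (KanMX:pRFA1:9Myc-AID*-BCY1), with leu2::pTEF1-osTIR::LEU2 to supply the plant ubiquitin ligase subunit. All strains of that experiment, parents included, were sampled at 2 h before auxin and at 4 and 6 h, after 2 and 4 h in 500 µM auxin. It had 1 library per strain and time in each of 2 library series, with 1 WT library at 2 h. All AID-BCY1 strains were labelled as ade2-1 and MATa with the WT marker alleles, so cdc20-1 and cdc15-2 cells differed from their AID-BCY1 counterparts in more than the degron. Finally, a cdc28-13 ADE2 strain made prototrophic (URA3, TRP1, HIS3 and leu2::4xSTRE-GFP:LEU2) was set against a cdc28-13 ADE2 auxotroph (his3-11,15, trp1-1, ura3 and leu2-3), both released at 37 °C after alpha factor synchronization, with 1 library per strain at 2, 4, 6 and 8 h.

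Purine nucleotides are built on ribose phosphate in a linear pathway that ends in IMP, from which separate branches lead to AMP and GMP. ADE4 encodes the amidotransferase of the first committed step. ADE5,7 encodes a bifunctional enzyme of early steps, ADE1 the SAICAR synthetase and ADE13 the adenylosuccinate lyase, which acts both before IMP and in the AMP branch. ADE17 encodes the enzyme that closes the ring to give IMP, using a folate-borne one-carbon unit, and ADE12 the adenylosuccinate synthetase that opens the AMP branch. IMD2, IMD3 and IMD4 encode IMP dehydrogenases, which open the GMP branch, and GUA1 encodes GMP synthetase, which completes it. In yeast the Bas1 and Pho2 transcription factors activate many ADE genes when adenine is short, IMD2 is known as the isoform induced when guanine nucleotides are short, and GMP synthesis feeds the large demand of growing cells for ribosomal RNA.

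The coding sequences lie on several chromosomes in the RefSeq R64 assembly. IMD2 spans chrVIII:554396-555967 on the plus strand, IMD3 chrXII:1002557-1004128 (plus) and IMD4 chrXIII:162194-164176 (minus). IMD4 is the one of the 10 with an intron, of 408 bases at chrXIII:163309-163716. GUA1 spans chrXIII:701790-703367 (plus), ADE17 chrXIII:507502-509280 (minus) and ADE1 chrI:169375-170295 (plus). The promoter windows of 6 genes are shown, because ADE17 and ADE1 were the members with the most alike profiles, because GUA1, IMD3 and IMD4 also varied together, and because IMD2 departed from its paralogs. Each window runs from 250 bases before to 50 bases after the coding start, 5′ to 3′ on the coding strand. Capitals mark TGACTC (the core bound by Bas1), GATGAG (the core of the PAC element of ribosome biogenesis genes) and AAAATTTT (the core of the RRPE element of the same genes), each on either strand.
ADE17 promoter, chrXIII:509231-509530, minus strand: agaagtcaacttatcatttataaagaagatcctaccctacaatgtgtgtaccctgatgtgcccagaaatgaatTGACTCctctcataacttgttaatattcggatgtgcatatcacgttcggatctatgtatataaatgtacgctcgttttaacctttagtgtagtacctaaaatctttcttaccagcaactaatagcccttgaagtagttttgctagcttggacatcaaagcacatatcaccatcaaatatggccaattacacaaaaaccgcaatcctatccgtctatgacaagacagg
ADE1 promoter, chrI:169125-169424, plus strand: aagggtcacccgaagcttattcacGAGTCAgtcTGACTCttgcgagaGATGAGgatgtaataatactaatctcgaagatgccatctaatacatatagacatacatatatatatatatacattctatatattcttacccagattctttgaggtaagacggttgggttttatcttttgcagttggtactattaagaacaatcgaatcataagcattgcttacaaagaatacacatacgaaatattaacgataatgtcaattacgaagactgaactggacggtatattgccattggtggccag
GUA1 promoter, chrXIII:701540-701839, plus strand: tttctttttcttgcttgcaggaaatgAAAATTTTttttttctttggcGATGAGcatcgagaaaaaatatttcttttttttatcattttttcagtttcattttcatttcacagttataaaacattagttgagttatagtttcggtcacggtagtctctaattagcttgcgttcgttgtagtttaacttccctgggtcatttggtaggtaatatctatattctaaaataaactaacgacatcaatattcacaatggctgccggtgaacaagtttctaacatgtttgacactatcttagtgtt
IMD4 promoter, chrXIII:164127-164426, minus strand: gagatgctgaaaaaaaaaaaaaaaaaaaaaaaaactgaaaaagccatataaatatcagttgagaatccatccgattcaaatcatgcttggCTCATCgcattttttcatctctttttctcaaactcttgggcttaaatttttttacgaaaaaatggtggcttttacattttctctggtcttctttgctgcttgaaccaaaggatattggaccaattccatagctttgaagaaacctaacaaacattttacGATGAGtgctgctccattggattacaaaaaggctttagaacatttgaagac
IMD3 promoter, chrXII:1002307-1002606, plus strand: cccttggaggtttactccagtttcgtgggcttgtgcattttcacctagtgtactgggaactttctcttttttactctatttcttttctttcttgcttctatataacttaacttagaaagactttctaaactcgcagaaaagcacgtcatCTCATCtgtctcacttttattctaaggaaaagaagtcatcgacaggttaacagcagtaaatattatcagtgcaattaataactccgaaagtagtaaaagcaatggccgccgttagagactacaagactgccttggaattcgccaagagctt
IMD2 promoter, chrVIII:554146-554445, plus strand: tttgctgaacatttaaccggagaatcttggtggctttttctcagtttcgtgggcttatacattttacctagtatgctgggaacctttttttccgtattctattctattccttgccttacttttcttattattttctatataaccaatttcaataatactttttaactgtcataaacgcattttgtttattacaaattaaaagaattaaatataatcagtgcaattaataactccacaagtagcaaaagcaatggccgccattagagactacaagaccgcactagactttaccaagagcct

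All 10 genes matched a RefSeq promoter. TGACTC was in 5 of the 10 windows, with 2 copies each in ADE1 and ADE5,7 and 1 each in ADE12, ADE13 and ADE17, and in 7.98% of all 6001 windows. In ADE17 the copy started 177 bases before the coding start. The longer Gcn4 core TGACTCA, which contains TGACTC, was in 1 member (ADE12) and in 2.73% of all windows. GATGAG was in 5 members (IMD3, IMD4, GUA1, ADE1 and ADE12) and in 20.4% of all windows, and 1 of the IMD4 copies overlapped the start codon. AAAATTTT was in 2 members (GUA1 and ADE5,7; 9.03% of windows) and AGGGG, the stress response element core, in 2 (ADE5,7 and ADE12; 21.6%). Of the 5 motifs searched on both strands, none was in the IMD2 window. These are letter matches, not measured binding. The IMD genes are close paralogs: their coding sequences were 88.9% identical for IMD2 and IMD3, 79.8% for IMD2 and IMD4 and 82.7% for IMD3 and IMD4. Reads from stretches they share were divided between paralogs by the authors' estimation, and the IMD1 pseudogene, near-identical to IMD2, had its own rows that each averaged at most 23.3 TPM in any group, so small differences between IMD levels are uncertain. Low IMD2 levels are uncertain too: the 23.3 TPM was in cells labelled diploid at 24 h of growth, where IMD2 averaged 21.9 TPM. ADE17 and its paralog ADE16 were 74.8% identical in coding sequence, and ADE17 levels do not give the level of the whole step.

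Values are given as TPM, a length-corrected share of the transcripts in a library, rescaled so that nuclear ORFs outside the ribosomal DNA sum to 1000000. Read depth is unknown because the table holds no counts. Ribosomal RNA took 75.1–84.2% of the deposited TPM in the cdc28-13, stationary phase and rapamycin experiments, 3.74–33.4% in the Bcy1 experiment, 11.6–24.7% with alpha factor or DMSO and 0.323–3.57% in the others. A TPM share cannot tell a change in a gene's own transcripts from a change in the other transcripts of its library. The labels do not say whether replicates were separate cultures, so p-values may measure technical spread. Genes of mating type, chosen after the values were seen, went against some labels. The libraries labelled diploid had the a-cell gene STE2 at 44.7–467 TPM and GPA1, which a/alpha diploids repress, at 30.4–123 TPM, close to the 24.8–134 TPM of GPA1 in haploid libraries. In the Bcy1 experiment the alpha-cell receptor gene STE3 was at 179–225 TPM in libraries labelled WT, 157–220.3 TPM in WT AID-BCY1 and 100.0–242 TPM in cdc15-2 AID-BCY1, all labelled MATa, and STE2 was at 17.2 TPM or lower in them. They are called by their labels in what follows. All libraries of these groups were affected, so no comparison could be made without them, and mating type differs within several pairs of that experiment.

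Levels differed widely among the 10 genes over all libraries of the series. GUA1, IMD4 and IMD3 of the GMP branch had the highest medians: GUA1 had a median of 516 TPM (18.1–1124), IMD4 of 321 TPM (0–948) and IMD3 of 250.4 TPM (19.4–449). The AMP and IMP genes lay lower, with medians of 199 TPM for ADE12, 151 TPM for ADE5,7, 138 TPM for ADE13, 127 TPM for ADE1 and 105 TPM for ADE4. IMD2 had a median of 97.0 TPM (0–374) and ADE17 was the lowest, with 53.1 TPM (0–889). These ranges overlapped between all neighbours in that order. On the log2 scale the SD over libraries was largest for ADE17 (1.83), IMD4 (1.72) and GUA1 (1.15), and smallest for ADE5,7 (0.44) and ADE13 (0.48).

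In arrested cdc28-13 cells the 10 genes went in opposite directions: ADE17 and IMD2 rose, IMD3 and GUA1 fell, and ADE4 was called at no time. ADE17 reached 520.1, 673 and 561 TPM in cdc28-13 cells at 8 h, against 35.7, 33.5 and 26 TPM in WT cells. At 9 h it reached 884, 747 and 889 TPM in cdc28-13 cells, against 51.5, 52.4 and 38.5 TPM in WT cells. Every cdc28-13 library stood far above every WT library at both times, and the log2 differences were 4.17 ± 0.25 at 8 h (SE, adjusted p = 7.89e-11) and 4.13 ± 0.25 at 9 h (adjusted p = 1.02e-10). The gap was already there in the 1 cdc28-13 library at 4 h (189 TPM, against 38.9, 49.5 and 43.7 TPM in WT cells, difference 2.08 ± 0.35, adjusted p = 0.000461). At 6 h the 1 library had 95.6 TPM, against 69.9, 34.0 and 39.3 TPM in WT cells, and did not pass.

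IMD2, the inducible IMP dehydrogenase, ran opposite ways in the 2 strains. In cdc28-13 cells its level was 46.2, 31.8 and 50.9 TPM at 2 h and 64.0 TPM in the 4 h library. It was 143 TPM in the 6 h library, 166, 215 and 159.9 TPM at 8 h and 206, 242 and 175 TPM at 9 h. In WT cells it had 81.2, 59.8 and 75.7 TPM at 2 h, 22.2, 35.1 and 26 TPM at 8 h and 31.6, 22.5 and 13.9 TPM at 9 h. The strains did not overlap at 2, 8 or 9 h, with cdc28-13 the lower one at 2 h and the higher one later. The differences were 1.82 ± 0.40 at 6 h (adjusted p = 0.00355), 2.67 ± 0.28 at 8 h (adjusted p = 2.73e-07) and 3.20 ± 0.28 at 9 h (adjusted p = 2.19e-08). The 2 main isoforms differed from it. IMD3 fell, with 225, 163 and 98.9 TPM in cdc28-13 cells at 8 h, against 304, 376 and 330.4 TPM in WT cells (difference −1.12 ± 0.23, adjusted p = 0.000736), and by 0.98 ± 0.23 at 9 h on the log2 scale (adjusted p = 0.00243). IMD4 had 266, 364 and 346 TPM in cdc28-13 cells at 8 h, against 362, 382 and 370.0 TPM in WT cells, overlapping and not called. At 9 h it was at 462, 521 and 496 TPM in cdc28-13 cells, against 415, 335 and 297 TPM in WT cells (difference 0.51 ± 0.13, adjusted p = 0.00353).

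GUA1, the next step after the IMP dehydrogenases, fell. It had 99.4, 137 and 171 TPM in cdc28-13 cells at 8 h, against 635, 517 and 633 TPM in WT cells, and 193, 148 and 178 TPM at 9 h, against 534, 534 and 588 TPM. No library overlapped at either time, and the differences were −2.15 ± 0.15 (adjusted p = 9.41e-10) and −1.68 ± 0.15 (adjusted p = 3.46e-08). At 4 h IMD3 and GUA1 were already called, at −1.63 ± 0.33 (adjusted p = 0.00237) and −1.65 ± 0.22 (adjusted p = 3.28e-05). At 6 h neither gene was called, and GUA1 was at 323 TPM in the cdc28-13 library, against 399–474 TPM in WT cells. At 2 h GUA1 had 506, 533 and 519 TPM in cdc28-13 cells, against 521, 611 and 526 TPM in WT cells, and overlapped.

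The other IMP and AMP genes moved later and less than ADE17. ADE1 rose at 9 h, to 361, 274 and 351 TPM in cdc28-13 cells, against 58.3, 91.3 and 98.8 TPM in WT cells (difference 2.00 ± 0.31, adjusted p = 3.74e-05). ADE12 had 330.2, 297 and 169.8 TPM in cdc28-13 cells at 9 h, against 117, 89.4 and 159.1 TPM in WT cells (difference 1.10 ± 0.27, adjusted p = 0.00266). ADE5,7, of the early steps, was lower at 8 h, with 89.4, 109.7 and 111 TPM in cdc28-13 cells, against 163, 148 and 190.1 TPM in WT cells (difference −0.69 ± 0.16, adjusted p = 0.00191). By 9 h its libraries overlapped (125, 186 and 186 TPM in cdc28-13 cells, against 149, 141 and 184 TPM in WT cells). ADE13 had 74.9, 104 and 44.2 TPM in cdc28-13 cells at 8 h, against 123, 117 and 164 TPM in WT cells (difference −0.92 ± 0.30, adjusted p = 0.0205). ADE4, of the first committed step, had 103, 215 and 152 TPM in cdc28-13 cells at 9 h, against 133, 119 and 71.7 TPM in WT cells, which overlapped.

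**Figure D1:**
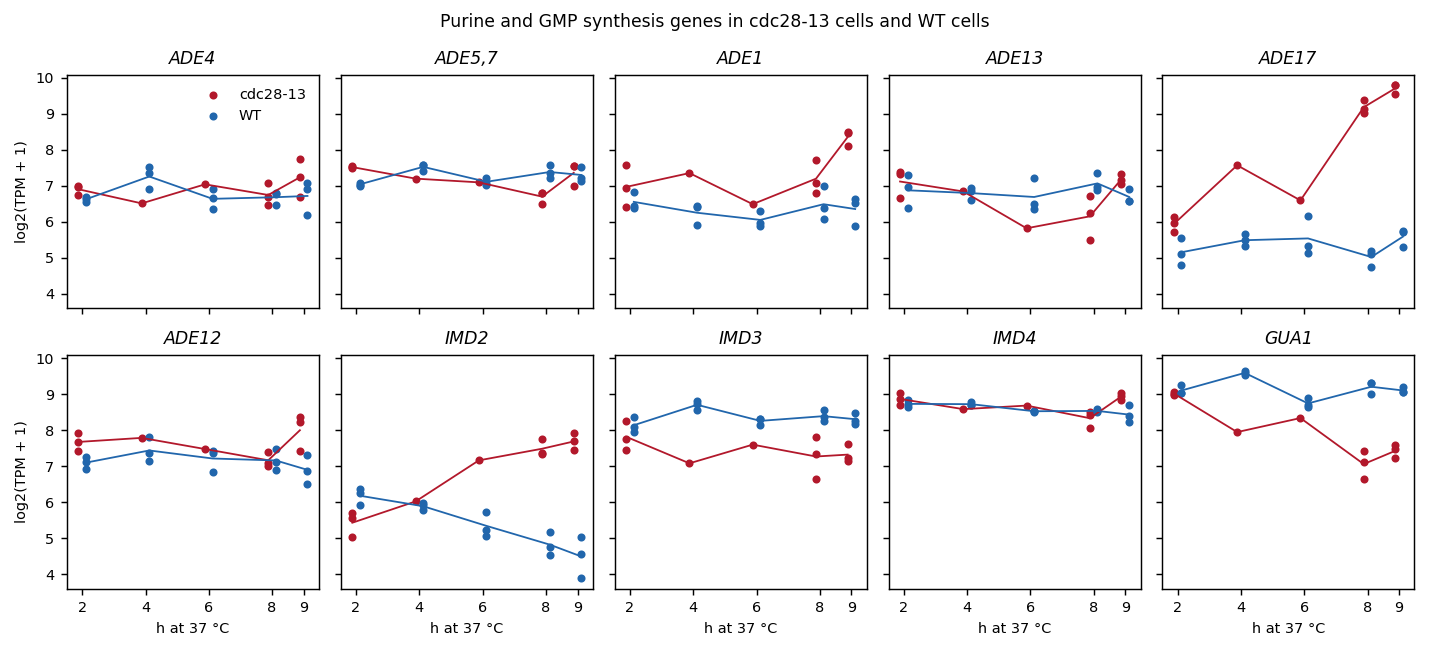
Level of the 10 genes as log2(TPM + 1) against hours at 37 °C, with a point for each cdc28-13 (red) and WT (blue) library and lines through the group means. The cdc28-13 points for ADE17 lie at 747 to 889 TPM at 9 h while WT points stay at or below 52.4 TPM, IMD2 separates upward, and GUA1 separates downward.

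Each library group was compared with limma across all genes kept. At 2 h none of the 10 members was called by limma, where 1.15% of all genes were, and 4 had an unadjusted p under 0.05. The counts of members called were 3 at 4 h (11.5% of all genes), 1 at 6 h (12.9%), 6 at 8 h (39.2%) and 7 at 9 h (36.2%), so the members stood above the share of all genes at 4, 8 and 9 h, in a set of 10 chosen with earlier results known. At 8 h 2 members were higher (17.5% of all genes) and 4 lower (21.7%), and at 9 h 5 were higher (17.1%) and 2 lower (19.1%). The median difference over the 10 was −0.10 at 8 h, beside −0.20 over all genes, and 0.51 at 9 h, beside −0.12. Scaling mattered: ORFs inside the ribosomal DNA took 74.1–87.5% of the ORF total here, and with the deposited values the split was 2 higher and 7 lower at 8 h and 3 higher and 4 lower at 9 h, beside 17.3% and 17.8% higher among all genes called (44.6% and 47.2% after rescaling). On the deposited scale IMD4 at 9 h was −0.49, ADE12 at 9 h was 0.05 (not called), and the calls on ADE17, IMD2, ADE1 and GUA1 kept their direction. Without WT replicate 3 or cdc28-13 replicate 3 at 8 h, ADE13 was no longer called (−0.77, adjusted p = 0.0884, and −0.59, adjusted p = 0.131), ADE1 was called at 8 h without WT replicate 1 or cdc28-13 replicate 2 (0.96 and 0.91), ADE4 at 9 h without cdc28-13 replicate 1 (0.79), and ADE17 at 6 h without WT replicate 1 (1.36).

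Other genes around the pathway were read by lists. Of 5 other de novo genes, 3 rose and none fell at 8 h and at 9 h (median 0.56 and 0.90), with ADE2 at 2.65 and 2.94 from the ade2-1 allele of both strains. Of 7 genes that supply one-carbon units, 4 rose and 3 fell at 8 h and 4 rose and 2 fell at 9 h. The risers were SHM2, a serine hydroxymethyltransferase (2.74 at 9 h), MTD1, a folate dehydrogenase (2.48), and GCV1 and GCV2 of the glycine cleavage system (3.38 and 2.88), while MIS1, the mitochondrial folate synthase, fell by 2.44 on the log2 scale. Of 5 genes for PRPP synthetase, which makes the ribose phosphate donor, none rose and 4 fell at 9 h, with PRS1 at −2.19. Of 13 salvage and interconversion genes, 1 rose and 7 fell at 8 h, among them AAH1, the adenine deaminase (−4.78), and ADO1, the adenosine kinase (−1.93). Of the 2 regulators, PHO2 was at 1.77 and BAS1 at −1.45 at 8 h.

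In cdc20-1 and cdc15-2 cells ADE17 and IMD2 were higher than in WT cells, in single libraries and in the replicated Bcy1 experiment. With 1 library per group no test was made, and a difference past 2-fold is counted. In cdc20-1 cells ADE17 was at 129, 112, 132 and 126 TPM at 2, 4, 6 and 9 h, against 34.3, 31.5, 38.1 and 41.2 TPM in WT cells. IMD2 was at 259, 275, 264 and 231 TPM in cdc20-1 cells, against 76.1, 72.6, 56.3 and 44.9 TPM in WT cells. Both genes were already high at 2 h in cdc20-1 cells, and the cdc20-1 library at 8 h, which had no WT partner, gave 115 TPM for ADE17 and 252 TPM for IMD2. At 9 h IMD3 was at 147 TPM in cdc20-1 cells, against 343 TPM in WT cells, IMD4 at 124 against 320.4 TPM, and GUA1 at 247 against 679.7 TPM. Past 2-fold were 2 members at 2 h (20.2% of all genes), 5 at 4 h (28.8%), 4 at 6 h (29.9%) and 5 at 9 h (37.1%), a share close to that of all genes at 2, 6 and 9 h and above it at 4 h.

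In cdc15-2 cells the same genes separated more slowly. IMD2 was at 50.5, 68.0, 92, 126 and 115 TPM at 2, 4, 6, 8 and 9 h in cdc15-2 cells, against 79.7, 66.6, 46.9, 46.6 and 37.5 TPM in WT cells, lower than WT at 2 h and higher from 6 h on. ADE17 was at 53.1, 117, 134, 117 and 107 TPM in cdc15-2 cells, against 30.3, 32.9, 38.6, 33.4 and 27.6 TPM in WT cells. ADE12 was highest at 4 h, with 397 TPM in cdc15-2 cells against 141 TPM in WT cells, and stood at 237 against 158 TPM at 9 h. GUA1, IMD3 and IMD4 declined with time in cdc15-2 cells, to 339.5, 114 and 128 TPM at 9 h, against 658, 326 and 322 TPM in WT cells. Past 2-fold was no member at 2 h (4.30% of all genes), 2 at 4 h (11.1%), 3 at 6 h (22.9%), and 4 at 8 h (32.2%) and at 9 h (38.1%), where the share was close to that of all genes.

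The parent strains of the Bcy1 experiment gave a replicated comparison after 6 h at 37 °C, with auxin in all cultures and acetic acid in the medium. IMD2 had 189 and 173 TPM in cdc28-13 cells, 270.1 and 271 TPM in cdc20-1 cells and 100.4 and 83.2 TPM in cdc15-2 cells, against 56.2 and 62.6 TPM in libraries labelled WT. No arrested library overlapped WT, and the differences were 1.6 ± 0.13, 2.17 ± 0.13 and 0.62 ± 0.13 (adjusted p = 1.76e-10, 7.29e-13 and 0.000514). ADE17 had 178 and 137 TPM in cdc28-13 cells, 78.2 and 39.8 TPM in cdc20-1 cells and 72.4 and 58.8 TPM in cdc15-2 cells, against 20.3 and 28.5 TPM in WT (differences 2.65 ± 0.29, 1.18 ± 0.29 and 1.4 ± 0.29, adjusted p = 3.64e-08, 0.0017 and 0.000429). ADE1 had 268 and 202 TPM in cdc28-13 cells, 139.5 and 109 TPM in cdc20-1 cells and 117 and 119 TPM in cdc15-2 cells, against 85.4 and 89.8 TPM in WT (differences 1.4, 0.49 and 0.42, adjusted p = 5.61e-08, 0.0137 and 0.0358). IMD3 was lower in each arrest, by 0.50, 0.54 and 0.84 on the log2 scale in cdc28-13, cdc20-1 and cdc15-2 cells (adjusted p = 0.0126, 0.00836 and 0.000193).

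ADE12, ADE5,7 and IMD4 were called in some of the arrests, and GUA1 was called in none of them with all libraries. ADE12 had 386 and 406 TPM in cdc15-2 cells and 331 and 304 TPM in cdc20-1 cells, against 150.3 and 255 TPM in WT (differences 1.01, adjusted p = 0.000511, and 0.69, adjusted p = 0.0099). ADE5,7 had 250.1 and 237 TPM in cdc20-1 cells and 179 and 145 TPM in cdc28-13 cells, against 102 and 136 TPM in WT (differences 1.04, adjusted p = 1.26e-05, and 0.45, adjusted p = 0.031). The genes most like ADE5,7 in profile lay on its own chromosome, and whether that bears on these differences was not tested. IMD4 was lower in cdc20-1 cells, with 148 and 187 TPM, against 245 and 328 TPM in WT (difference −0.76, adjusted p = 0.00212). The arrests share the same WT libraries and were not tested against each other.

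Members called in that experiment were 5 in cdc28-13 cells (44.9% of all genes), 7 in cdc20-1 cells (44.3%) and 5 in cdc15-2 cells (38.0%), so the cdc20-1 count stood above the share of all genes and the other counts were closer to it. In cdc28-13 cells 4 were higher (27.0% of all genes) and 1 lower (17.9%), in cdc20-1 cells 5 higher (29.7%) and 2 lower (14.6%), and in cdc15-2 cells 4 higher (30.1%) and 1 lower (7.89%). Every call had the same direction in both library series. The calls were made from those same libraries, so this is not separate support. The splits after centring each library on its median were 3 higher and 2 lower, 3 and 3, and 2 and 3, and there IMD2 in cdc15-2 cells was 0.23 (adjusted p = 0.257). With 2 libraries a group, leaving out 1 ended several calls. In cdc28-13 cells these were IMD3 (without WT replicate 2 or cdc28-13 replicate 2: −0.36 and −0.34) and ADE5,7 (without WT replicate 1, cdc28-13 replicate 1 or cdc28-13 replicate 2: 0.15, 0.36 and 0.53). In cdc20-1 cells they were ADE1, ADE12 and ADE17 (without WT replicate 1: 0.37, 0.31 and 0.77; without cdc20-1 replicate 1: 0.39, 0.61 and 0.85) and IMD3 and IMD4 (without WT replicate 2: −0.39 and −0.53; without cdc20-1 replicate 1: −0.43 and −0.58). In cdc15-2 cells they were ADE12 (without WT replicate 1: 0.63) and ADE1 (without WT replicate 1, cdc15-2 replicate 1 or cdc15-2 replicate 2: 0.31, 0.52 and 0.33). Calls were gained for GUA1 and ADE12 in cdc28-13 cells (−0.47 without WT replicate 1 and 0.88 without WT replicate 2), for GUA1 in cdc20-1 cells (−0.49 without cdc20-1 replicate 2) and for IMD4 in cdc15-2 cells (−0.70 without WT replicate 1). The libraries labelled WT carried alpha-cell transcripts while cdc28-13 and cdc15-2 cells carried a-cell transcripts, and mating type and arrest cannot be told apart there.

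The one-carbon genes were called in these arrests too. Of its 7 genes, 5 rose and 1 fell in cdc28-13 cells, 5 rose and 1 fell in cdc20-1 cells, and 5 rose and none fell in cdc15-2 cells, with GCV1 at 2.05, 1.71 and 1.71. Of the 5 other de novo genes, 4, 3 and 3 rose and none fell. Of the 13 salvage genes, 1 rose in each arrest and 5, 5 and 2 fell, including FCY2, the purine-cytosine permease, at −0.94 in cdc28-13 cells and −1.74 in cdc20-1 cells.

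**Figure D2:**
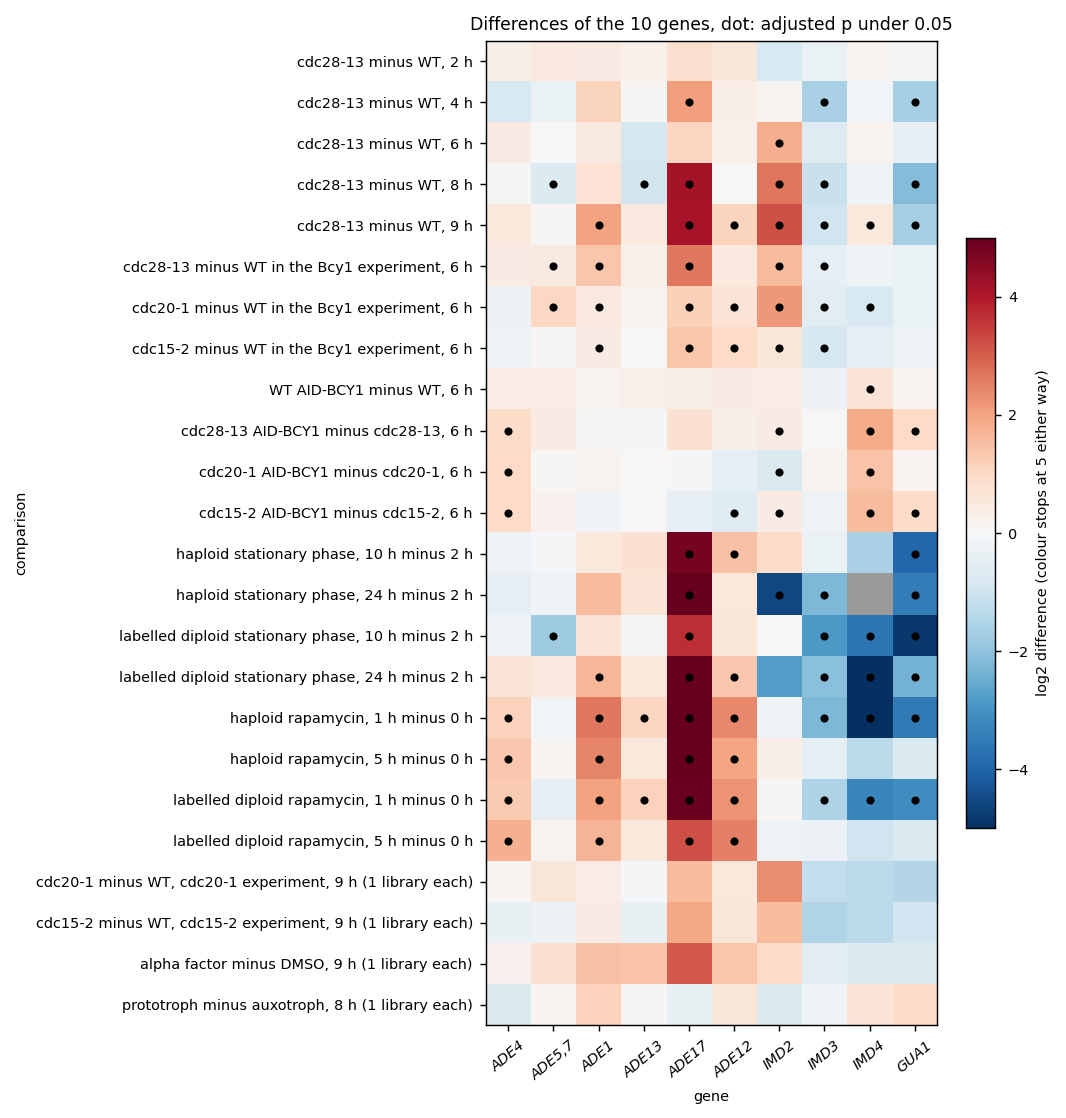
Log2 difference (colour, limited to 5 either way) of each gene (across) in each comparison (down), with a dot where the limma adjusted p was under 0.05, no dots where groups had 1 library, and grey for IMD4 in haploid cells at 24 h, listed at 0. ADE17 is red in the arrests, rapamycin and stationary phase, up to 6.84 (4.6 without the 0 h rapamycin library listed at 0), while GUA1 is mostly blue there and red in the cdc28-13 and cdc15-2 AID-BCY1 comparisons.

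Alpha factor gave a different mix: ADE17, ADE1, ADE13 and ADE12 were higher than in DMSO, while IMD3, IMD4 and GUA1 of the GMP branch were lower at 9 h by less than 2-fold. At 0 h the paired libraries were nearly the same, with ADE17 at 8.76 TPM before alpha factor and 8.13 TPM before DMSO. ADE17 was then at 42.9, 76.2, 117, 152 and 130.2 TPM at 2, 4, 6, 8 and 9 h of alpha factor, against 14.3, 10.4, 12.4, 10.8 and 14.5 TPM in DMSO. ADE1 was at 168, 214, 224, 275 and 268 TPM with alpha factor, against 88.2, 74.8, 81.6, 91.8 and 96.1 TPM in DMSO. ADE13 was at 208, 249, 327, 393 and 419 TPM with alpha factor, against 149, 132, 138, 153 and 156 TPM in DMSO. All 3 genes were higher with alpha factor at each time after 0 h. ADE12 was at 256 TPM at 9 h of alpha factor, against 96.1 TPM in DMSO, and IMD2 at 214 against 110.2 TPM. IMD3, IMD4 and GUA1 were lower at 9 h, at 229, 241 and 395 TPM with alpha factor against 331, 390.1 and 627 TPM in DMSO, and none of them passed 2-fold at any time. Past 2-fold were no members at 0 h (1.51% of all genes), then 1, 2, 3, 4 and 4, each of them higher, at 2, 4, 6, 8 and 9 h (19.2%, 21.9%, 27.8%, 34.8% and 29.5%), so the count was close to the share of all genes at each time. FUS1, a mating gene used to check the treatment, was at 410–858 TPM with alpha factor from 2 h on, against 14.4–33.3 TPM in DMSO.

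In the AID-BCY1 strains, in which auxin removes the inhibitor of PKA, IMD4 was higher than in the parent in all 4 backgrounds at 6 h. IMD4 had 914 and 856 TPM in cdc28-13 AID-BCY1 cells, against 247 and 239 TPM in cdc28-13 cells (difference 1.86 ± 0.19, adjusted p = 3.54e-08). It had 439 and 462 TPM in cdc20-1 AID-BCY1 cells, against 148 and 187 TPM in cdc20-1 cells (1.43 ± 0.19, adjusted p = 2.99e-06). In cdc15-2 AID-BCY1 cells it had 618 and 609 TPM, against 190.5 and 219.8 TPM in cdc15-2 cells (1.58 ± 0.19, adjusted p = 2.83e-07). In the cycling WT AID-BCY1 cells it had 485 and 396 TPM, against 245 and 328 TPM in WT (0.63 ± 0.19, adjusted p = 0.0287). No pair overlapped. The WT call was lost with the deposited values (0.43, adjusted p = 0.232), after centring (0.50, adjusted p = 0.144) and with only the groups compared in the fit (adjusted p = 0.153). At 4 h, after 2 h of auxin, IMD4 was already at 948 and 900.1 TPM in cdc28-13 AID-BCY1 cells, against 314 and 366 TPM in cdc28-13 cells.

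GUA1 and ADE4 joined IMD4 in some backgrounds. GUA1 had 866 and 891 TPM in cdc28-13 AID-BCY1 cells, against 455 and 431 TPM in cdc28-13 cells (0.99 ± 0.15, adjusted p = 1.06e-05), and 868 and 927 TPM in cdc15-2 AID-BCY1 cells, against 429.7 and 518 TPM in cdc15-2 cells (0.93 ± 0.15, adjusted p = 1.57e-05). In the cdc20-1 background its libraries overlapped (417 and 573 TPM with AID-BCY1, against 387 and 519.8 TPM). ADE4 had 239 and 185 TPM in cdc28-13 AID-BCY1 cells, against 134 and 90.9 TPM in cdc28-13 cells (0.92, adjusted p = 0.00239). It had 142 and 133 TPM in cdc20-1 AID-BCY1 cells, against 81.4 and 57.1 TPM in cdc20-1 cells (1.00, adjusted p = 0.00128), and 144 and 149.8 TPM in cdc15-2 AID-BCY1 cells, against 67.9 and 78 TPM in cdc15-2 cells (1.01, adjusted p = 0.000718). ADE4 was thus called higher in the 3 arrested backgrounds and was not called in WT (106 and 109.9 TPM in WT AID-BCY1 cells, against 87.1 and 80.7 TPM in WT). Its difference was not called as larger than in WT (0.36) by an interaction term in limma. The terms were 0.56, 0.64 and 0.64 in cdc28-13, cdc20-1 and cdc15-2 (adjusted p = 0.305, 0.214 and 0.188).

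IMD2 was called in both directions. It was lower in cdc20-1 AID-BCY1 cells, with 159.9 and 171 TPM, against 270.1 and 271 TPM in cdc20-1 cells (−0.71 ± 0.13, adjusted p = 0.000202), and was already lower there at 2 h, before auxin (114 and 91.0 TPM, against 270.4 and 257 TPM; −1.36 ± 0.13, adjusted p = 2.49e-08). It was higher in cdc28-13 AID-BCY1 cells (0.40, adjusted p = 0.0261) and cdc15-2 AID-BCY1 cells (0.41, adjusted p = 0.0183), in which its 2 h libraries were also above those of the parent, without a call (138.6 and 131 TPM in cdc28-13 AID-BCY1 cells, against 101 and 95.9 TPM, and 135 and 116 TPM in cdc15-2 AID-BCY1 cells, against 98.5 and 85.6 TPM). ADE17 was called in no background, with 286 and 248 TPM in cdc28-13 AID-BCY1 cells, against 178 and 137 TPM in cdc28-13 cells, and 26.9 and 35.2 TPM in WT AID-BCY1 cells, against 20.3 and 28.5 TPM in WT. IMD3 was called in none either. ADE12 was lower in cdc15-2 AID-BCY1 cells, with 246 and 258 TPM, against 386 and 406 TPM in cdc15-2 cells (−0.65, adjusted p = 0.0216).

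**Figure D3:**
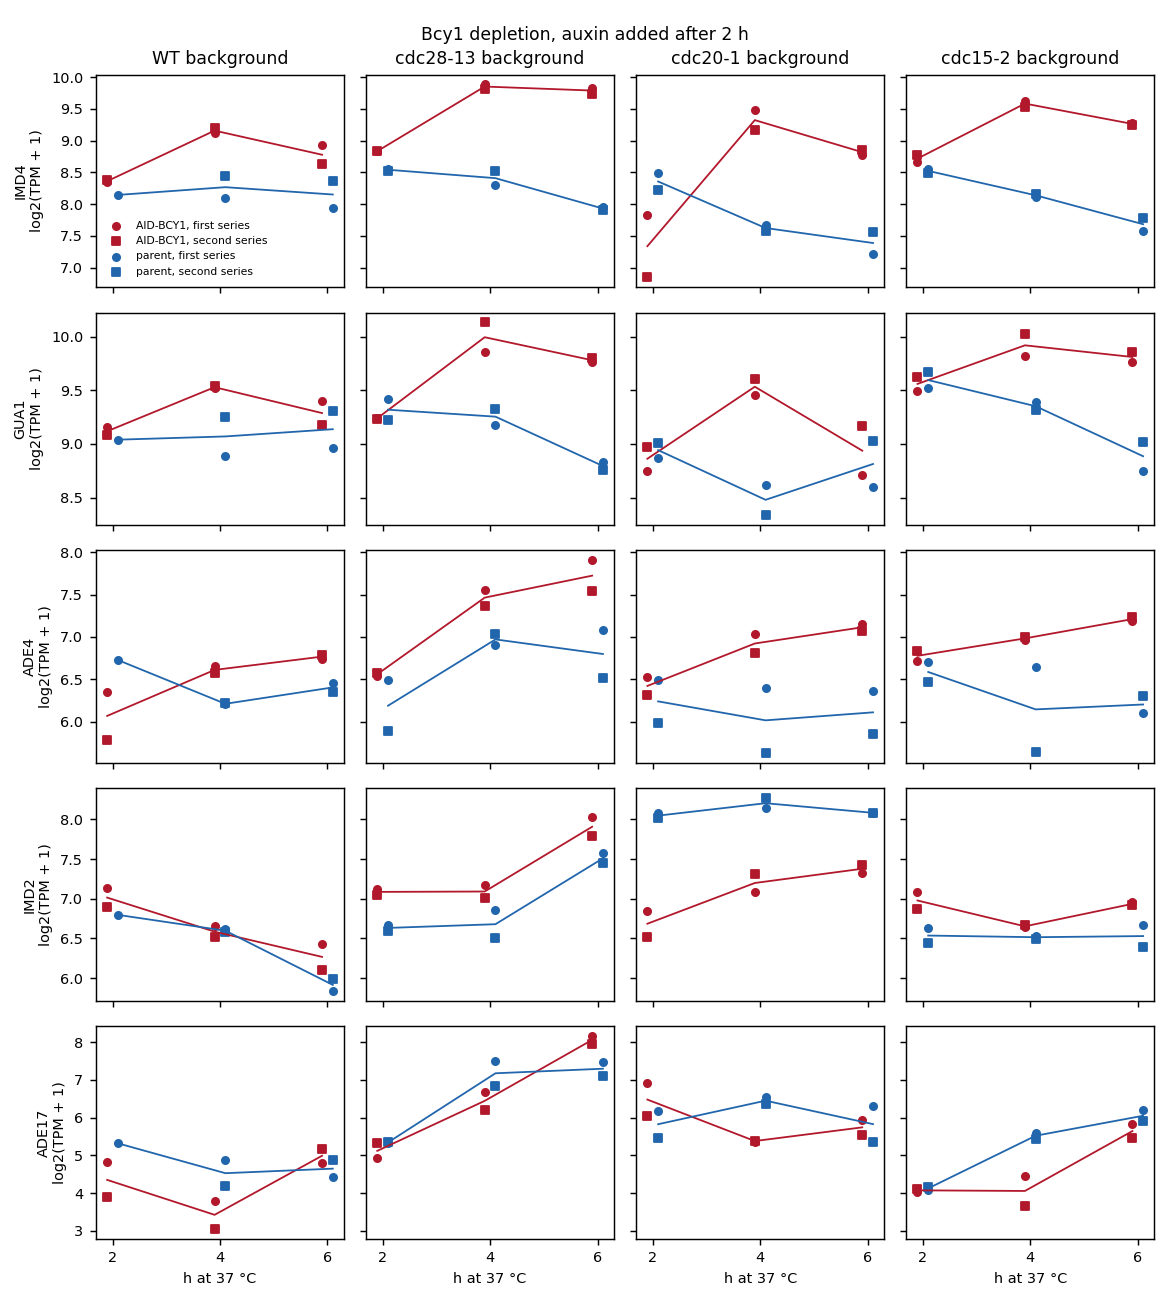
Level of IMD4, GUA1, ADE4, IMD2 and ADE17 as log2(TPM + 1) against hours at 37 °C in each background, with AID-BCY1 libraries in red, parents in blue, circles and squares for the 2 library series, lines through the means, and a separate vertical range for each gene. IMD4 reaches 948 TPM at 4 h in cdc28-13 AID-BCY1 cells, while cdc28-13 cells stay at or below 376 TPM.

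Members called at 6 h were 1 in the WT background (13.9% of all genes), 4 in cdc28-13 (23%), 3 in cdc20-1 (20.3%) and 5 in cdc15-2 (28.4%). These counts stood above the share of all genes in cdc28-13 and cdc15-2 and closer to it in WT and cdc20-1. Each call had the same direction in both library series, which is not separate support, since the calls were made from those libraries. At 2 h, before auxin, limma called none in the WT (0.0494%), cdc28-13 (0.148%) and cdc15-2 (0.955%) backgrounds, with 1 unadjusted p under 0.05 in each, and 2 in cdc20-1 (2.60%), IMD2 and IMD4 (−1.02, adjusted p = 0.00218). The change from 2 h to 6 h in the AID-BCY1 strain minus that in its parent removes what differed before auxin. It was called for IMD4 and GUA1 in cdc28-13 (1.57 and 1.07; 7.15% of all genes called) and cdc15-2 (1.39 and 0.96; 14.6%), for IMD4 and IMD2 in cdc20-1 (2.45 and 0.66; 11.8%) and for no member in WT (1.78%; 3 unadjusted p under 0.05). Leaving out 1 library ended the IMD4 call in WT (0.39, 0.49 and 0.77 without WT replicate 1, WT AID-BCY1 replicate 1 and WT AID-BCY1 replicate 2) and its 2 h call in cdc20-1 (−0.89 and −0.52 without cdc20-1 replicate 1 and AID-BCY1 replicate 2). It also ended the ADE4 call in cdc28-13 (0.75 without cdc28-13 replicate 2), the ADE12 call without any 1 of the 4 cdc15-2 libraries (−0.67 to −0.63) and the small IMD2 calls in cdc28-13 (0.33 to 0.41) and cdc15-2 (0.32 to 0.44) without any library other than AID-BCY1 replicate 2 in cdc28-13 and other than parent replicate 1 in cdc15-2. The IMD2 change in cdc20-1 was no longer called without cdc20-1 6 h replicate 1, cdc20-1 2 h replicate 2, or replicate 2 of AID-BCY1 at 2 h or 6 h (0.54 to 0.64). In the WT background calls were gained without WT replicate 2 for IMD2 (0.49), ADE5,7 (0.68) and ADE12 (0.80), and without WT AID-BCY1 replicate 1 for ADE12 (0.82). In cdc20-1 they were gained without AID-BCY1 2 h replicate 1 for IMD3 and ADE13, at 2 h (−0.71 and −0.67) and in the change (0.85 and 0.67), and without AID-BCY1 6 h replicate 1 for the IMD3 change (0.83). In cdc15-2 the ADE4 change was gained without cdc15-2 6 h replicate 2 (1.04). Set against the WT background by an interaction term, the 6 h difference was called for IMD4 and GUA1 in cdc28-13 (6.04% of all genes), IMD2 in cdc20-1 (4.46%) and IMD4, GUA1 and ADE12 in cdc15-2 (10.8%). The cdc20-1 and cdc15-2 parents differ from their AID-BCY1 strains in mating type transcripts and marker alleles, and these cannot be told apart from the degron.

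Around the members, pathway genes moved in both directions after Bcy1 depletion. In cdc28-13 AID-BCY1 cells at 6 h, where 23% of all genes were called, 1 of the 5 other de novo genes rose and 1 fell, as did 1 and 1 of the 5 PRPP synthetase genes, and 2 of the 13 salvage genes rose and 3 fell. AAH1 was lower in all 4 backgrounds at 6 h, at −1.57 in WT, −1.05 in cdc28-13, −1.28 in cdc20-1 and −0.60 in cdc15-2 cells. GUK1, the guanylate kinase downstream of GUA1, was higher in the cdc28-13 and cdc15-2 backgrounds (0.58 in each). The one-carbon genes did not move as a list: 2 rose and 2 fell in cdc28-13, none passed in WT or cdc20-1 (limma), and 2 fell in cdc15-2, with GCV1 at −0.76 in cdc28-13 and −1.32 in cdc15-2.

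Within 1 h of rapamycin the ADE genes other than ADE5,7 rose and IMD3, IMD4 and GUA1 fell, in haploid cells and in those labelled diploid. ADE17 was at 543 and 541 TPM after 1 h in haploid cells, against 21.4 and 0 TPM at 0 h, and at 442 and 370.3 TPM in cells labelled diploid, against 7.40 and 19.4 TPM. Treated libraries lay above untreated ones (differences 6.84 ± 0.88, adjusted p = 2.67e-05, and 4.95 ± 0.88, adjusted p = 0.000605). Without the 0 h library listed at 0 the haploid ADE17 difference was 4.6 (adjusted p = 5.97e-07), and with only the groups compared in the fit it was not called (adjusted p = 0.1002). ADE1 was at 346 and 351 TPM after 1 h in haploid cells, against 52.8 and 56.6 TPM at 0 h (2.65 ± 0.30, adjusted p = 8.18e-06), and at 215 and 200.3 TPM in cells labelled diploid, against 36.4 and 69.3 TPM (2.02 ± 0.30, adjusted p = 0.000137). ADE12 was at 466 and 548 TPM after 1 h in haploid cells, against 80.9 and 112 TPM at 0 h (2.39 ± 0.21, adjusted p = 3.44e-07). ADE4 was at 203 and 194 TPM, against 93.3 and 85.4 TPM (1.14 ± 0.19, adjusted p = 0.000271). ADE13 was at 249 and 245 TPM in haploid cells, against 125 and 111 TPM (1.06 ± 0.34, adjusted p = 0.0261). ADE5,7 was the one ADE gene not called at 1 h, with 173 and 177 TPM, against 195 and 191 TPM at 0 h.

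GUA1, IMD4 and IMD3 of the GMP branch fell at 1 h, and by 5 h none of them was called. In haploid cells GUA1 was at 784 and 626 TPM before rapamycin (0 h), 57.1 and 60.6 TPM after 1 h, 53.4 and 44.5 TPM after 2 h, 194 and 119 TPM after 3 h, 256 and 161 TPM after 4 h and 406 and 443 TPM after 5 h. IMD4 was at 329 and 373 TPM before rapamycin, 14.4 and 6.84 TPM after 1 h, 31.7 and 22.4 TPM after 2 h, 25.0 and 53.1 TPM after 3 h, 32.1 and 86.3 TPM after 4 h and 134 and 142 TPM after 5 h. Both were lowest in the first 2 h. At 1 h against 0 h the differences in haploid cells were −3.55 ± 0.33 for GUA1 (adjusted p = 9e-07), −5.0 ± 0.51 for IMD4 (adjusted p = 2.25e-06) and −2.26 ± 0.38 for IMD3 (adjusted p = 0.000307). In cells labelled diploid they were −3.09 ± 0.33, −3.28 ± 0.51 and −1.53 ± 0.38. IMD2 was at 76.2 and 67.0 TPM at 1 h in haploid cells, against 80.1 and 88.0 TPM at 0 h, and was not called at 1 or 5 h. ADE1, ADE4, ADE12 and ADE17 were still called at 5 h in both, at 2.45, 1.33, 1.99 and 5.71 in haploid cells (ADE17 3.47 without the 0 h library listed at 0) and 1.68, 1.77, 2.51 and 3.22 in cells labelled diploid.

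**Figure D4:**
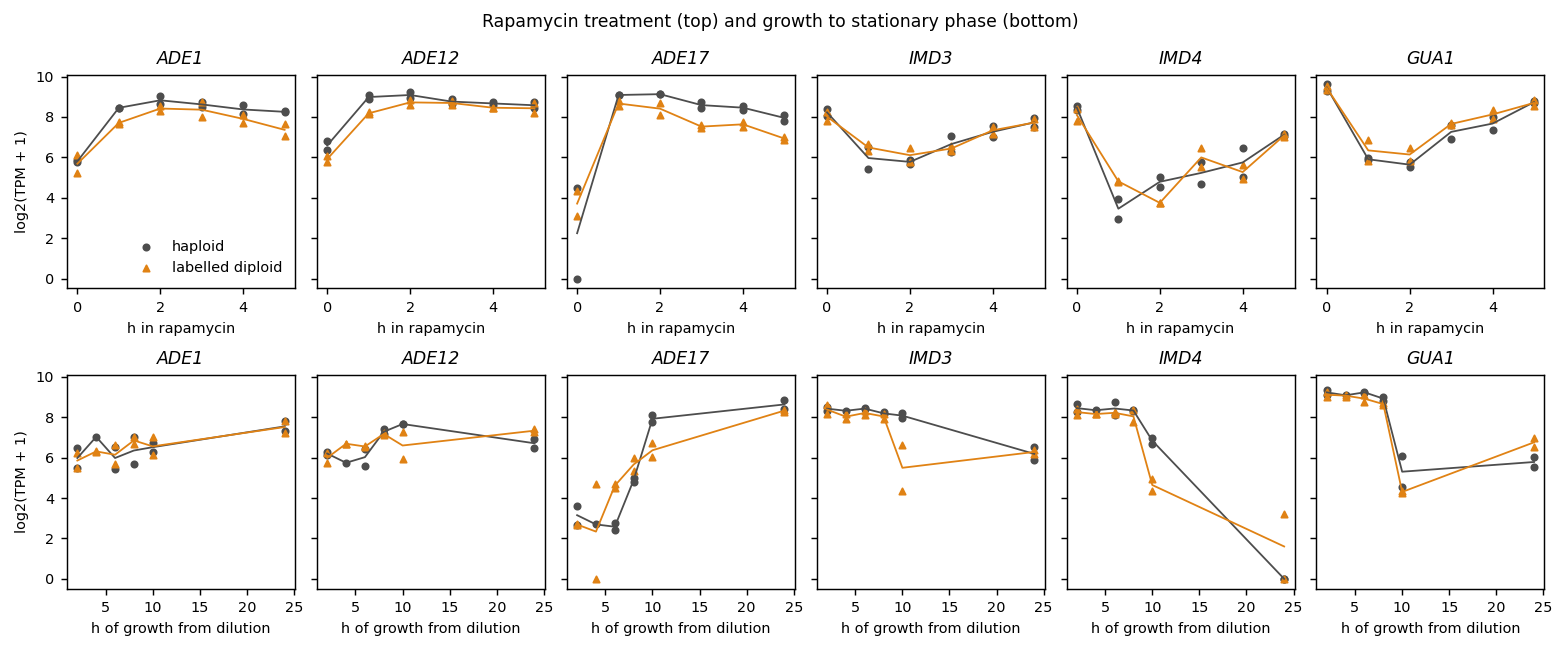
Level of ADE1, ADE12, ADE17, IMD3, IMD4 and GUA1 as log2(TPM + 1) in each haploid library and each library labelled diploid, against hours in rapamycin (top) and hours of growth from dilution (bottom), with lines through the means. After 1 h of rapamycin ADE17 lies at 370.3 to 543 TPM and IMD4 at 6.84 to 27.4 TPM, and at 10 h of growth GUA1 lies between 18.1 and 66.1 TPM.

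Members called were 8 at 1 h in haploid cells (31.6% of all genes), 4 at 5 h (26.3%), 8 at 1 h in cells labelled diploid (26.4%) and 4 at 5 h (23.8%). These counts were above the share of all genes, by few genes at 5 h, in a set of 10 chosen with earlier results known. At 1 h 5 members were higher and 3 lower in both, beside 23.8% of all genes higher and 7.72% lower in haploid cells and 18.8% and 7.56% in cells labelled diploid, and all calls at 5 h were higher. The median of all genes itself was above 0, at 0.63 and 0.62 at 1 and 5 h in haploid cells and 0.45 and 0.53 in cells labelled diploid, beside medians of 0.46, 0.42, 0.60 and 0.35 over the 10 members. After centring each library on its median the splits were 3 higher and 4 lower, 4 and 3, 4 and 4, and 3 and 2, with IMD4 at −2.09 and GUA1 at −1.48 called at 5 h in haploid cells. With the deposited values 2 members were lower at 5 h in each, IMD4 and GUA1. Leaving out 1 library ended the ADE13 call in haploid cells whichever was left out (0.98 to 1.15) and in cells labelled diploid without 0 h replicate 1 or 1 h replicate 2 (0.67 and 0.85), the IMD3 call there without 0 h replicate 2 or 1 h replicate 2 (−1.31 and −1.37), and the 5 h ADE17 call there without 0 h replicate 1, 5 h replicate 1 or 5 h replicate 2 (2.58, 3.13 and 3.31). No member's response differed between haploid cells and those labelled diploid by an interaction term at 1 h or 5 h (0.680% and 0.939% of all genes by limma; 1 and 0 members with an unadjusted p under 0.05). The rapamycin dose may have differed between them (label against methods), so ploidy label and dose cannot be told apart.

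The pathway lists followed the same division. Of the 7 one-carbon genes, 5 rose and 1 fell in haploid cells at 1 h, with GCV2 at 6.13, GCV1 at 5.28, MTD1 at 4.78 and MIS1 at −3.04 (list median 3.76). Of the 5 PRPP synthetase genes 4 fell at 1 h in haploid cells and 4 in cells labelled diploid, and none passed at 5 h (limma). Of the 5 other de novo genes, 4 rose at 1 h in haploid cells, with ADE2 at 2.70 and ADE3 at 2.34. Among salvage genes GUD1, the guanine deaminase, averaged 293 TPM at 1 h in haploid cells and was listed at 0 at 0 h, and AAH1 was at −5.29.

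In stationary phase ADE17 rose and GUA1 fell, both by 10 h. GUA1 was at 66.1 and 22.2 TPM at 10 h in haploid cells, against 546 and 658 TPM at 2 h (−3.93 ± 0.36, adjusted p = 9.26e-06; −4.69 and −3.16 without 10 h replicates 1 and 2), and at 19.4 and 18.1 TPM in cells labelled diploid, against 604 and 507 TPM (−4.81 ± 0.36, adjusted p = 1.55e-07). At 8 h, 2 h earlier, it was still at 452 and 517 TPM in haploid cells and 411 and 391 TPM in cells labelled diploid. At 24 h it was at 65 and 45 TPM in haploid cells and 125 and 92.1 TPM in cells labelled diploid (−3.45 and −2.36 against 2 h, adjusted p = 8.21e-06 and 0.000298). ADE17 was at 271 and 216 TPM at 10 h and 459 and 342 TPM at 24 h in haploid cells, against 5.41 and 11.3 TPM at 2 h (4.77 ± 1.00, adjusted p = 0.00577, and 5.48 ± 1.00, adjusted p = 0.000991). In cells labelled diploid it was at 103 and 64.3 TPM at 10 h and 331 and 309.6 TPM at 24 h, against 5.42 and 5.47 TPM (3.68 ± 1.00, adjusted p = 0.0123, and 5.64 ± 1.00, adjusted p = 0.000898). No late library overlapped the 2 h libraries for either gene.

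IMD3 and IMD4, the main IMP dehydrogenase genes, were low at 24 h, and in cells labelled diploid both fell by 10 h. IMD4 was at 103 and 126 TPM at 10 h in haploid cells and listed at 0 in both at 24 h, against 301 and 404 TPM at 2 h, and at 29.3 and 19.6 TPM at 10 h in cells labelled diploid, with 8.22 and 0 TPM at 24 h, against 276 and 335 TPM (−3.61 ± 0.68 at 10 h, adjusted p = 0.000997, and −6.65 ± 0.68 at 24 h, adjusted p = 6.67e-06). IMD3 was at 295 and 245 TPM at 10 h and 57.1 and 90.3 TPM at 24 h in haploid cells, against 319.6 and 367 TPM at 2 h (−2.24 ± 0.50 at 24 h, adjusted p = 0.00452). In cells labelled diploid it was already at 19.4 and 98.9 TPM at 10 h, against 391 and 282 TPM at 2 h (−2.88 ± 0.50, adjusted p = 0.000504). IMD2 was highest at 10 h in haploid cells, with 320.1 and 207 TPM, against 139.1 and 130.3 TPM at 2 h, not called, and was at 32.7 and 0 TPM at 24 h (−4.55 ± 1.07, adjusted p = 0.00641). Without the library listed at 0 that IMD2 difference was −2.01 (adjusted p = 0.0236), and with only the groups compared in the fit it was not called (adjusted p = 0.270). The IMD4 difference at 24 h in cells labelled diploid was −5.05 without the library listed at 0, and the IMD3 difference at 10 h was −1.74 without 10 h replicate 1 and −4.03 without 10 h replicate 2. The summed level of the 3 genes at 24 h was 89.7–90.3 TPM in haploid cells, against 760.0–901 TPM at 2 h, and 102.0–104 TPM in cells labelled diploid, against 747–828 TPM. ADE5,7 was lower in cells labelled diploid at 10 h, with 31.6 and 47.2 TPM, against 172 and 107 TPM at 2 h (−1.78 ± 0.29, adjusted p = 0.000295), and at 136 and 129 TPM in haploid cells, against 145 and 139.3 TPM. ADE12 rose at 10 h in haploid cells (205 and 198 TPM, against 75.8 and 69.6 TPM; 1.46 ± 0.39, adjusted p = 0.0245) and at 24 h in cells labelled diploid (152 and 168.8 TPM, against 75.3 and 52.2 TPM; 1.34 ± 0.39, adjusted p = 0.0247).

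Members called in haploid cells were 3 at 10 h (11.3% of all genes) and 5 at 24 h (22.7%), and in cells labelled diploid 5 at 10 h (28.6%) and 6 at 24 h (20.7%). Each was above the share of all genes, by few genes in a set of 10 chosen with earlier results known. In haploid cells 2 members were higher (6.46% of all genes) and 1 lower (4.80%) at 10 h, and 1 higher (12.4%) and 4 lower (10.3%) at 24 h. In cells labelled diploid 1 was higher (13.5%) and 4 lower (15.1%) at 10 h, and 3 higher (11.2%) and 3 lower (9.50%) at 24 h. The split at 24 h in cells labelled diploid was 1 higher and 4 lower with the deposited values and after centring, and 1 higher and 5 lower in haploid cells with the deposited values. Leaving out 1 library ended the ADE12 call at 10 h in haploid cells whichever was left out (1.4 to 1.52) and the ADE17 call there without 2 h replicate 1 (4.30). In cells labelled diploid it ended ADE17 at 10 h (3.67, 3.68 and 3.34 without 2 h replicate 1, 2 h replicate 2 and 10 h replicate 1), IMD3 at 24 h (−1.86 without 2 h replicate 1), ADE1 at 24 h whichever was left out (1.27 to 2.05, 1.66 ± 0.54 with all libraries, adjusted p = 0.0441) and ADE12 at 24 h without 2 h replicate 2, 24 h replicate 1 or 24 h replicate 2 (1.08, 1.41 and 1.27). Calls were gained for ADE13 (0.94 without haploid 24 h replicate 2), ADE1 (2.04 without haploid 2 h replicate 1) and ADE12 at 10 h (1.29 without labelled diploid 10 h replicate 1). By an interaction term the change at 10 h differed between haploid cells and those labelled diploid for IMD3 and ADE5,7 (7.57% of all genes by limma), and at 24 h for no member (0.279%; 1 unadjusted p under 0.05). The glycine cleavage genes GCV1 and GCV3 rose in all 4 comparisons, GCV1 by 4.31 to 4.84, and of the 13 salvage genes 2, 5, 7 and 4 fell and none rose (haploid 10 h and 24 h, then labelled diploid 10 h and 24 h).

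Between the cdc28-13 ADE2 strains, IMD2 was lower in the prototroph at each time, ADE4 was lower at 6 h, and GUA1, IMD4 and ADE1 were higher at 8 h. ADE17 was at 69.0, 88.8, 61.7 and 55.8 TPM at 2, 4, 6 and 8 h in the prototroph, against 61.9, 168, 174 and 72.3 TPM in the auxotroph. IMD2 was at 80.1, 98.4, 148 and 234 TPM in the prototroph, against 89.2, 140.1, 293 and 374 TPM in the auxotroph. IMD2 climbed in both strains. At 8 h GUA1 was at 556 TPM in the prototroph, against 297 TPM in the auxotroph, IMD4 at 499.5 against 316 TPM, and ADE1 at 193 against 85.9 TPM. ADE4 was lower, at 61.9 TPM at 6 h in the prototroph against 132 TPM in the auxotroph. Past 2-fold were no members at 2 h (2.88% of all genes) and 4 h (4.75%), 2 at 6 h (9.33%; ADE4 and ADE17, both lower) and 1 at 8 h (14.0%; ADE1, higher). There was 1 library per strain and time, and no test was made.

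The IMP dehydrogenase isoforms were also compared as shares of their summed TPM. IMD2 made up 24.1% of the sum in cdc28-13 cells at 9 h, against 3.25% in WT cells, over sums of 862 and 689 TPM. At 9 h it made up 46.0% in cdc20-1 cells, against 6.34% in WT cells, and 32.2% in cdc15-2 cells, against 5.48% in WT cells. There the sums were smaller in the mutants, at 501 TPM in cdc20-1 cells against 708 TPM, and 357 TPM in cdc15-2 cells against 686 TPM. The share was 31.3% after 9 h of alpha factor, against 13.2% in DMSO, and 25.5% in the prototroph at 8 h, against 41.5% in the auxotroph. After 1 h of rapamycin it was 49.2% in haploid cells, against 11.5% at 0 h, while the IMD2 level itself was not called. In the AID-BCY1 strains the share was lower than in the arrested parents: it was 17.7% in cdc28-13 AID-BCY1 cells at 6 h, against 27.9% in cdc28-13 cells, and 19.2% in cdc20-1 AID-BCY1 cells, against 41.2% in cdc20-1 cells, where it was already lower at 2 h, before auxin (21.1% against 29.0%). The 6 h sums were larger with AID-BCY1, at 1356 against 651 TPM in cdc28-13 and 860 against 658 TPM in cdc20-1. The IMD2 level itself was called higher in the first (0.40) and lower in the second (−0.71).

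**Figure D5:**
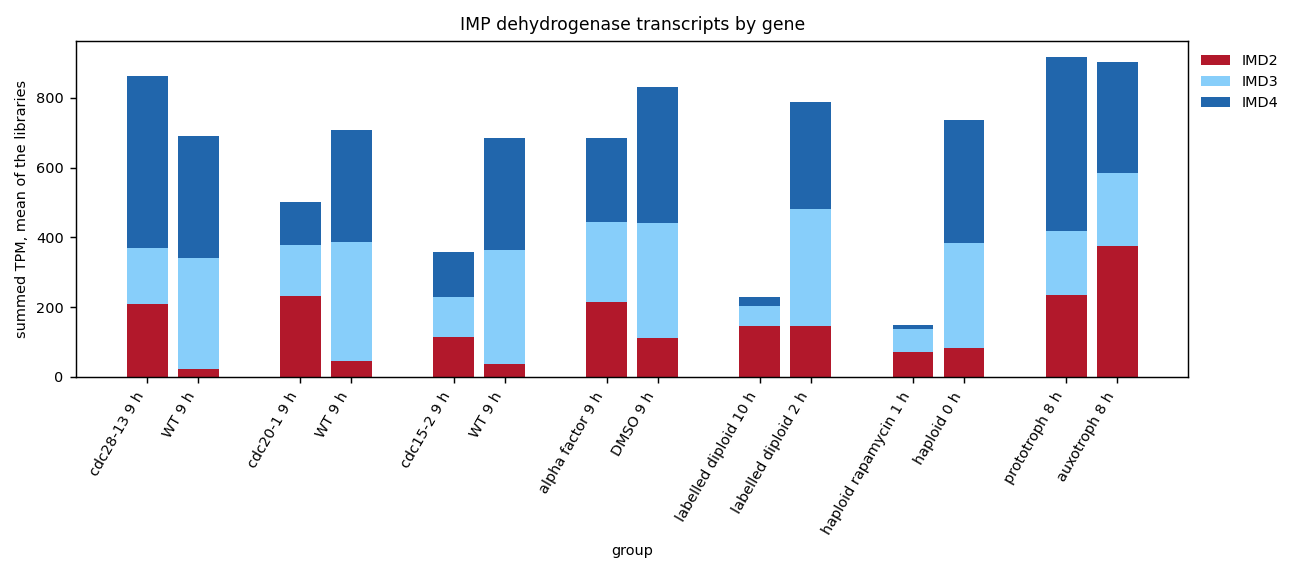
Mean TPM of IMD2, IMD3 and IMD4, stacked, for 7 pairs of groups. IMD2 takes 24.1% of the bar in cdc28-13 cells at 9 h and 3.25% in WT cells, and the whole bar reaches 148 TPM after 1 h of rapamycin, against 736 TPM at 0 h.

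Across all libraries, with each gene centred within its experiment, the members fell into groups by profile. These correlations are a description, since libraries share strains, experiments and normalization. ADE1 and ADE17 had r = 0.78, ADE1 and ADE12 0.72 and ADE12 and ADE17 0.68, while IMD3 and GUA1 had 0.75, IMD4 and GUA1 0.70 and IMD3 and IMD4 0.66. Without the rapamycin and stationary phase experiments r was 0.61 for IMD3 and GUA1, 0.56 for IMD4 and GUA1 and 0.28 for IMD3 and IMD4. GUA1 and ADE17 ran opposite (r = −0.71). IMD2 had r = −0.03 with IMD3 and 0.15 with ADE17, but without the rapamycin and stationary phase experiments its r was 0.64 with ADE17 and −0.66 with GUA1. Among 5644 genes kept in all experiments, those most like GUA1 were RPA135 (0.93), a subunit of RNA polymerase I, KAP123 (0.91), a karyopherin that imports ribosomal proteins, and the ribosome assembly genes RRP5, MAK21 and BRX1 (0.91 each). Those most like ADE17 were GCV2 (0.85), GCV1 (0.84) and SHM2 (0.84), and ADE17 itself headed the list for ADE1. IMD3 and IMD4 both had YEF3, a translation elongation factor, at the top (0.85 and 0.80). IMD2 was most like NCW1 (0.68), YNL058C (0.65), GAS5 (0.65) and CRH1 (0.64), the last 2 of which encode cell wall enzymes. Without centring these were at 0.64, 0.57, 0.45 and 0.56. ADE5,7 was most like ERG1 (0.72), of sterol synthesis, and ADE6 (0.68), another de novo gene. ERG25 (0.65), PFK1 (0.59) and MSB2 (0.56) came next. By their systematic names all of these lie on chromosome VII, as ADE5,7 does. What the shared chromosome contributes to these correlations was not tested. ADE4 and ADE13 had the lowest best matches, DLD3 (0.59) for ADE4 and ADE12 (0.55) for ADE13.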

How the data were processed

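RNA-seq was done on libraries of 8 experiments, each sample placed in its group by the labels. Per the labels and the submitters' processing notes, the authors aligned reads with STAR 2.5.3a and estimated abundance with RSEM 1.3.0 on the sacCer3 build, and deposited 1 table of log2(TPM + 1) values with no counts, so depth is unknown. Of the libraries, 132 were labelled total RNA and 27 polyA RNA. The alpha factor and Bcy1 libraries are labelled total RNA, while the study's methods describe mRNA enrichment for them, and which holds was not tested. Rows of spiked-in RNA were not used.

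Deposited TPM values were rescaled so that 6678 nuclear ORFs (6685 less 7 inside the ribosomal DNA) summed to 1000000 in each library, and were returned to log2(TPM + 1). Fold changes are on that scale with its pseudocount of 1, which understates changes of low genes where no library was listed at 0. A library listed at 0 could enlarge them instead. The haploid ADE17 difference at 1 h of rapamycin was 6.84 with such a library and 4.6 without it. The haploid IMD2 difference at 24 h of growth was −4.55 with such a library and −2.01 without it. Genes whose mean was at least 1 in an experiment were kept, 5978 to 6438 per experiment, and all 10 members were kept in each. Each replicated experiment was fitted with limma 3.58.1 (R 4.3.3, trended variance, library series as a covariate in the Bcy1 experiment), p-values were adjusted by Benjamini-Hochberg over all genes kept, and a gene was called at an adjusted p under 0.05. The fit was tested on simulated data. With 1 library per group no test was made and 2-fold was the limit for counting. Tables were made with pandas 2.3.3 and numpy 2.4.6 in Python 3.11.15, sequences were read with Biopython 1.88 and plots drawn with matplotlib 3.10.9.

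The genes named were the 10 members, pathway genes from 5 lists (other de novo, PRPP synthetase, one-carbon supply, regulators, salvage), and the genes most like each member in profile. The members and lists were chosen with earlier results of these data known, and mating-type genes and interaction terms after values were seen. Alternatives were the deposited scale, rescaling with the ribosomal DNA ORFs, centring on the library median, another pseudocount, no filter, only the groups compared, no series covariate, the replicate block, and leaving out each library. Across libraries the highest pairwise correlation was 0.992, and no library was a copy of another.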

Additional observations from a re-analysis of the deposited data

Results flagged for a closer look

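In the stationary phase and Bcy1 experiments 14 values marked a response that differed between groups by an interaction term in limma, with terms chosen after the values were seen. At 10 h of growth the change from 2 h was higher in haploid cells than in cells labelled diploid by 2.54 ± 0.70 on the log2 scale for IMD3 (adjusted p = 0.0420) and by 1.69 ± 0.41 for ADE5,7 (adjusted p = 0.0193), where 7.57% of all genes differed. IMD3 had changed by −0.35 in haploid cells and −2.88 in cells labelled diploid, and ADE5,7 by −0.10 and −1.78.

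At 6 h the AID-BCY1 minus parent difference was compared between each arrested background and WT. In the cdc28-13 background it was larger than in WT by 1.23 ± 0.27 for IMD4 (adjusted p = 0.00794) and 0.84 ± 0.21 for GUA1 (adjusted p = 0.0160), where 6.04% of all genes differed. In the cdc20-1 background (4.46% of all genes) it was −1.06 ± 0.18 for IMD2 (adjusted p = 0.000862). There IMD2 was already lower in AID-BCY1 cells at 2 h, before auxin, and its change from 2 h to 6 h went the other way (0.66). In the cdc15-2 background (10.8%) it was 0.95 ± 0.27 for IMD4 (adjusted p = 0.0239), 0.78 ± 0.21 for GUA1 (adjusted p = 0.0172) and −1.07 ± 0.30 for ADE12 (adjusted p = 0.0221). These comparisons share the WT pair. The cdc20-1 and cdc15-2 pairs also differ in mating type transcripts and marker alleles, which cannot be told apart from the degron. The change between 2 h and 6 h also differed between AID-BCY1 cells and their parent. It differed for IMD4 (1.57) and GUA1 (1.07) in cdc28-13, for IMD2 (0.66) and IMD4 (2.45) in cdc20-1, and for IMD4 (1.39) and GUA1 (0.96) in cdc15-2.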

How the results depend on the processing

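Of the alternatives, leaving out 1 library moved 20 counts of members called by over 1.5 times, fitting only the groups compared 11, the deposited scale 5, centring 3, and no filter and rescaling with ribosomal DNA ORFs 2 each. On the deposited scale they were 6 in cdc28-13 cells at 4 h (3 after rescaling) and 6 at 6 h (1), 3 in cdc28-13 cells of the Bcy1 experiment (5), 0 for WT AID-BCY1 at 6 h (1) and 1 for the cdc20-1 AID-BCY1 change (2). Rescaling with ribosomal DNA ORFs gave 6 at 4 h and 5 at 6 h in cdc28-13 cells. Centring gave 0 for WT AID-BCY1, 4 for the cdc20-1 change and 7 for haploid rapamycin at 5 h (4). Without the filter the counts were 2 at 6 h in cdc28-13 cells and 2 for WT AID-BCY1. Fitting only the groups compared gave 0 at 6 h in cdc28-13 cells, 3, 2 and 3 for cdc28-13, cdc20-1 and cdc15-2 arrests in the Bcy1 experiment (5, 7 and 5), 0 for WT AID-BCY1, 1 and 4 for the cdc20-1 and cdc15-2 changes (2 each), 3 and 3 for labelled diploid growth at 10 h and 24 h (5 and 6), and 5 and 2 for labelled diploid rapamycin at 1 h and 5 h (8 and 4). The cause was not tested, beyond the fewer residual degrees of freedom of the smaller fits. WT AID-BCY1 at 2 h had none left and no value.

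Directions turned at 8 h in cdc28-13 cells for ADE4 (−0.72 deposited, −0.86 with ribosomal DNA ORFs) and ADE12 (−0.83 and −0.93), at 9 h for IMD4 (−0.49 and −0.28) and ADE5,7 (−0.76 and −0.71), and at 6 h for IMD4 (−0.62 and −0.68).

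With 1 library left out, counts ranged 3 to 3, 1 to 2, 5 to 7 and 7 to 8 in cdc28-13 cells at 4, 6, 8 and 9 h. They ranged 3 to 5, 2 to 8 and 4 to 5 for cdc28-13, cdc20-1 and cdc15-2 arrests in the Bcy1 experiment. For AID-BCY1 at 6 h they ranged 0 to 4, 2 to 4, 3 to 3 and 3 to 4 in WT, cdc28-13, cdc20-1 and cdc15-2, 1 to 4 for cdc20-1 at 2 h, and 1 to 4 and 2 to 3 for the cdc20-1 and cdc15-2 changes. They ranged 1 to 2, 5 to 6, 4 to 5 and 4 to 4 for growth (haploid 10 h and 24 h, labelled diploid 10 h and 24 h), and 7 to 7, 4 to 4, 6 to 8 and 3 to 4 for rapamycin in the same order. A lone library was then assumed to vary like the other groups.

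Same-numbered libraries did not pair: 0 of 84, 110 and 132 pairs in the cdc28-13, growth and rapamycin experiments correlated over 0.1. A replicate block left all 13 counts within 1.5 times of the values without it and ended 1 call, ADE1 in cells labelled diploid at 24 h (1.66, adjusted p = 0.0547). A pseudocount of 0.1 left 32 counts, and no series covariate 15 counts, within 1.5 times.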
